A study of Mus musculus with 8 samples.

Results

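Neurons of the dorsomedial hypothalamic nucleus (DMH) were set against neurons of the arcuate nucleus (Arc), gene by gene, on 5 of the 8 arrays of the series: 3 arrays of DMH and 2 of Arc. The remaining 3 arrays hold neurons of the ventromedial nucleus (VMH); they entered the estimate of the spread and are given beside single genes. All groups came from female mice aged 2 months that carried a tamoxifen-inducible Cre recombinase under Nkx2-1 (Nkx2-1-CreERT2), a homeobox gene of the developing hypothalamus, and a Rosa-ZsGreen reporter, and that had received tamoxifen. The labelled neurons were collected by laser capture, so each array holds the RNA of many cells of mixed type. The neurons aimed at are those of the Nkx2-1 lineage that recombined. Markers of cells other than neurons were also measured, as given below. The labels do not say how many animals stand behind a sample or whether samples share animals, so each p-value reflects only how far these samples scatter, which may be technical. Every gene with a measurable probe is described here: of 55681 probes, 40896 were well above background on all arrays of Arc or of DMH, and they stand for 27130 gene names. In pooled cells, fewer cells of a type and less RNA per cell cannot be told apart.

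The arcuate nucleus lies at the floor of the hypothalamus beside the median eminence and senses circulating signals of energy balance. It holds neurons that make proopiomelanocortin (Pomc), which curb feeding, neurons that make agouti-related peptide (Agrp) and neuropeptide Y (Npy), which drive feeding, and neurons that make kisspeptin (Kiss1), growth hormone-releasing hormone (Ghrh) or dopamine, which act on the pituitary. The dorsomedial nucleus lies above it, is reached by the circadian system and by arcuate fibres, and takes part in the timing of feeding, in thermogenesis and in the response to stress; its neurons are both glutamatergic and GABAergic, and some make cholecystokinin (Cck), gastrin-releasing peptide (Grp), galanin (Gal) or thyrotropin-releasing hormone (Trh).

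Levels are given as log2 of the red-channel signal minus the 75th percentile of that array, and a difference is the DMH mean minus the Arc mean on this scale, with its standard error (SE). Its adjusted p comes from limma with Benjamini-Hochberg adjustment over all 27130 genes, and a gene is called where this p is below 0.05. Where the dimmer nucleus was not well above background, the fold is given as an approximate lower bound ("at least"). On each such array it was taken against the lowest signal of any probe well above background, or the gene's own reading if higher. Some probes that were not well above background read above that lowest signal, so the bound is not guaranteed for a single probe.

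Genes that mark the nuclei are given first. They were chosen with earlier results of these data known, and Cck and Grp passed the filter only through DMH. They are therefore no independent check of the labels. Cck and Grp were not well above background on either Arc array and were well above it on all 3 DMH arrays, and Pomc and Tbx3 were higher on both Arc arrays than on any DMH array. Nkx2-1 itself was measured on every array, at 0.34 and 0.06 on the Arc arrays and 1.26, 1.12 and 1.25 on the DMH arrays, a difference of 1.01 (SE 0.20, adjusted p = 0.085), so the gene that defines the lineage did not pass the threshold. The 22 pan-neuronal genes tested had a median difference of 0.01. The 75th percentile of the raw signal was 1818 and 1806 on the Arc arrays and 3042, 2320 and 2107 on the DMH arrays (exact two-sided permutation test, p = 0.2; the smallest possible here is 0.1). Between 72.4% and 74.1% of probes were well above background on the Arc arrays and between 75.7% and 78.7% on the DMH arrays (exact p = 0.1). Across genes, the Arc arrays correlated at 0.942 with each other, the DMH arrays at 0.949 to 0.962, and Arc with DMH arrays at 0.906 to 0.938. Differences within each row of the slide were 7.69 and 9.70 for Cck and -5.54 and -5.61 for Pomc.

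What each array reads for a gene is a 60-base probe. The first 30 bases are shown for 4 genes higher in DMH and 4 genes lower in DMH that kept their call under every way of processing tried that retained their probe, because these genes carry the comparison; they are as the array design lists them, 5′ to 3′, and all in lower case.
Cck: cttcagtgactcccagacctaatgttgcta
Nr2f2: ggcccttttccttgtttgctttgtgttagc
Ebf3: accgagagcttcactaaatggtagattttg
Gpr39: cggcgcagtaactcttcctccaggagaact
Pomc: tggtgacgctcttcaagaacgccatcatca
Tbx3: ctttatggtgttttggattggtgtactgag
Agrp: ctagccaatggatgttgtttgggcaaaggc
Trim67: ttcctgtattactttttggaaaacttgagt
In mm9, the build of the array design, these stretches lie at chr9:121398973-121399002 for Cck, chr7:77496903-77496932 for Nr2f2, chr7:144385520-144385549 for Ebf3 and chr1:127769282-127769311 for Gpr39, of which the last is on the plus strand and the others are on the minus strand. Those of Pomc, Tbx3 and Trim67 are on the plus strand at chr12:3960413-3960442, chr5:120134511-120134540 and chr8:127358525-127358554, and that of Agrp is on the minus strand at chr8:108090630-108090659. Whether a probe lies in coding sequence or in a UTR was not analysed here.

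For the leading peptide gene of each nucleus, the 250 bases before the annotated start are shown from RefSeq (GRCm38.p6), with motifs found by a search of both strands in capitals.
Cck: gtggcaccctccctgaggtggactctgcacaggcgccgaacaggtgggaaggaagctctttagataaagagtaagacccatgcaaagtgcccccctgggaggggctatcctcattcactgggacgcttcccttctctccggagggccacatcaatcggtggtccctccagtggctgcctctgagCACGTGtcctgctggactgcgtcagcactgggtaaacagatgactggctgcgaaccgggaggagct
Pomc: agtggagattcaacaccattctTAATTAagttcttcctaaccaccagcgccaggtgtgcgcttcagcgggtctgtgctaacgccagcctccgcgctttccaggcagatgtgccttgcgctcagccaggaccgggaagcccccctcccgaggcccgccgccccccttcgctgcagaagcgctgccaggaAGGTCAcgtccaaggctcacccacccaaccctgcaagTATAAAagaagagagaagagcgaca
The Cck stretch is chr9:121495695-121495944 on the minus strand and the Pomc stretch is chr12:3954695-3954944 on the plus strand. The search used 6 strings, none of which overlapped another in these stretches. AGGTCA is a nuclear receptor element and TAATTA a homeodomain core, AGGTGTGA a T-box element and GCGTGGGCG an EGR element, CACGTG an E-box and TATAAA the TATA box. The Cck stretch held CACGTG, 66 to 61 bases before the start. The Pomc stretch held TAATTA at 228 to 223, AGGTCA at 62 to 57 and TATAAA at 25 to 20 bases before the start. CACGTG was in 5 of 40 such stretches of genes higher in DMH and 2 of 32 of genes lower, against 6.05% of all 27018; AGGTCA was in 4 of 40 and 4 of 32, against 13.8%; TAATTA was in 0 of 40 and 3 of 32, against 4.9%; TATAAA was in 1 of 40 and 3 of 32, against 13%. AGGTGTGA and GCGTGGGCG were in none of these stretches of called genes, against 1.14% and 0.54% of all.

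Across the 27130 genes, 61 were higher in DMH than in Arc (0.225% of genes tested) and 51 were lower (0.188%). Called differences ran from 1.42 to 8.68 on the log2 scale among genes higher in DMH, and from -1.31 to -5.86 among genes lower. Of the 61, 26 were not well above background on any Arc array, and of the 51, 9 were not well above background on any DMH array. The median difference over all genes was -0.05 and the quartiles were -0.40 and 0.30. A difference beyond 1 in either direction was seen for 3175 genes (11.7%), beyond 2 for 549 and beyond 3 for 136, while the 95% interval lay wholly between -1 and 1 for 10791 genes (39.8%). At an unadjusted p below 0.05 there were 1843 genes higher and 2742 lower. The arrays of the nuclei did not overlap, with all DMH arrays above both Arc arrays, for 3668 genes (13.5%), and with all below for 5470 genes (20.2%). With Arc represented by 2 arrays and DMH by 3, calls changed with the array left out: 90 higher and 30 lower without Arc array 1, 62 and 26 without Arc array 2, 23 and 9 without DMH array 1, 19 and 10 without DMH array 2, 27 and 34 without DMH array 3, and 34 and 26, 37 and 24, and 32 and 18 without VMH array 1, 2 and 3. Of the 112 genes, 14 of those higher and 7 of those lower were called with each of the 8 arrays left out in turn.

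**Figure D1:**
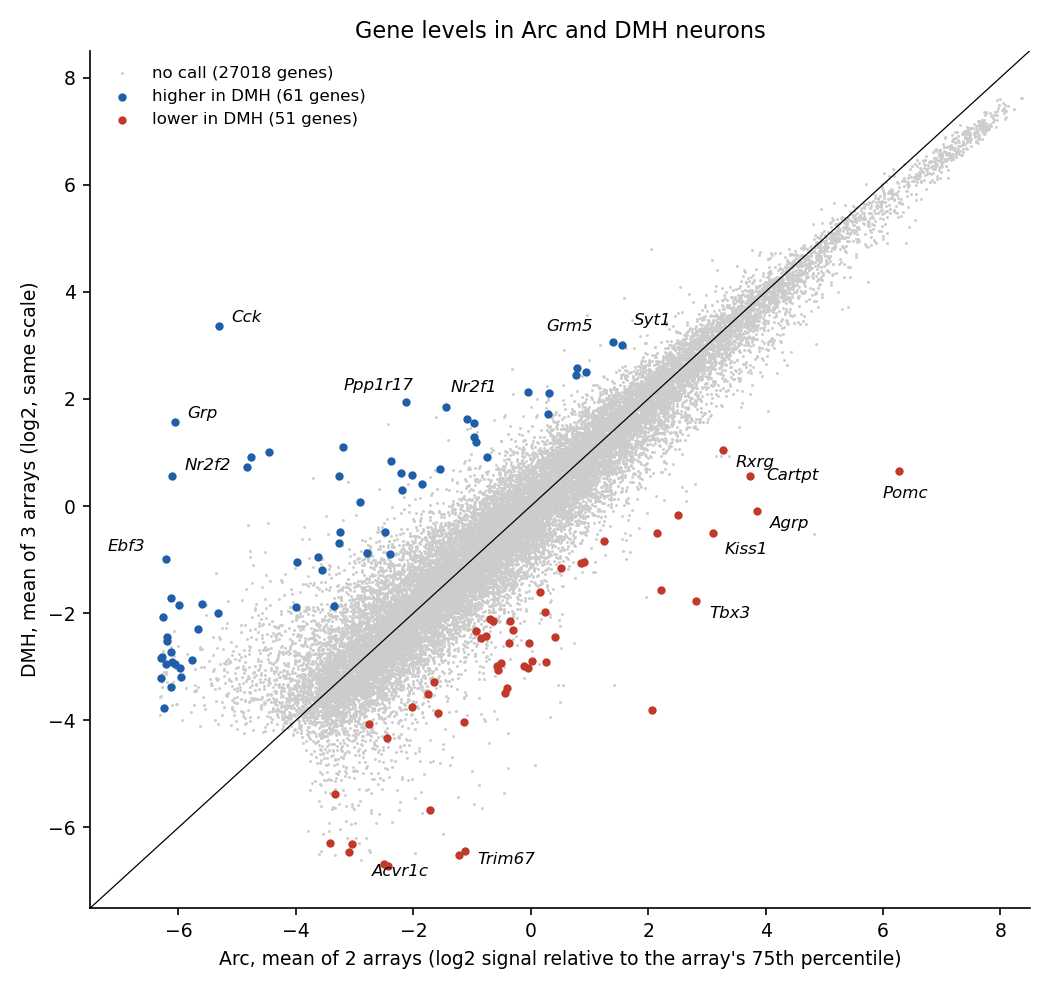
Mean level of each of 27130 genes in Arc (horizontal, 2 arrays) and DMH (vertical, 3 arrays), in log2 relative to the array's 75th percentile; blue points are the 61 genes higher in DMH, red points the 51 genes lower, grey points genes with no call, and the line marks equal levels. Cck, Grp and Nr2f2 lie far above the line and Pomc, Tbx3 and Trim67 far below it, and most genes at the highest levels lie slightly below it.

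The median difference was not the same at all levels. Among the 360 genes with a mean level above 6, the median difference was -0.52, the DMH arrays lay below both Arc arrays for 320 of them, and 0 were called by limma, against 178 at an unadjusted p below 0.05. Among the 904 genes between 4 and 6 it was -0.19, and among the 6351 genes between 0 and 2 it was 0.00. Among the 363 genes below -4 it was 0.58, the opposite direction. Genes this dim passed the filter only if every array of 1 nucleus was well above background. The lowest such signal was -3.97 and -4.05 on the Arc arrays and -4.90, -5.32 and -4.42 on the DMH arrays. The filter thus bears on the median of the 363, which is not read as a shift between the nuclei. After quantile normalization, which gives every array the same distribution, the median of the 360 genes was 0.00 and that of the 363 was 0.60. Calls were more frequent among dim genes: 35 higher and 22 lower of the 9044 genes in the dimmest tercile, 18 and 21 of 9043 in the middle and 8 and 8 of 9043 in the brightest, where the median SE was 0.40, 0.32 and 0.25.

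Neuropeptide genes were called in both directions. Of 40 precursor genes of neuropeptides and peptide hormones tested, 3 were higher in DMH and 5 lower, against 0.225% and 0.188% of all genes. The median of the list was -0.15, against -0.05 for all genes. Counts of called genes in the lists below stand beside the same shares. Cck, which encodes a peptide known as a gut and brain satiety signal, read -6.26 and -4.37 on the Arc arrays and 3.25, 3.41 and 3.44 on the DMH arrays. Its level in DMH was at least 166-fold that in Arc, with a fitted difference of 8.68 (SE 0.50, adjusted p = 0.0015). The DMH arrays agreed within 0.19 on the log2 scale, and no Arc array came near them. Grp, the mammalian bombesin-like peptide, read -6.08 and -6.05 on the Arc arrays and 1.61, 1.79 and 1.32 on the DMH arrays, at least 47.9-fold higher in DMH, with a difference of 7.64 (SE 0.57, adjusted p = 0.0041). Qrfp, the precursor of a feeding-stimulating RFamide peptide, read -4.12 and -3.83 on the Arc arrays and -1.77, -0.20 and -1.18 on the DMH arrays; its difference of 2.92 (SE 0.42, adjusted p = 0.0414) passed narrowly, with 1 of the 2 Arc arrays well above background. Trh, the hypothalamic releasing factor for thyrotropin, did not pass: it read -3.10 and -1.77 on the Arc arrays and 1.67, 1.71 and 1.22 on the DMH arrays, a difference of 3.96 (SE 0.73, adjusted p = 0.0757). All DMH arrays lay above both Arc arrays for Trh. The Arc arrays stood 1.33 apart, and the VMH arrays, which share the estimate of the spread, ranged over 2.67.

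Pomc, Agrp, Kiss1, Cartpt and Ghrh, which mark Arc neurons, were the 5 precursors lower in DMH. Pomc read 6.44 and 6.11 on the Arc arrays and 0.40, 0.73 and 0.83 on the DMH arrays, a difference of -5.62 (SE 0.45, adjusted p = 0.00577), or 49.1-fold lower in DMH. The Arc arrays lay within 0.33 of each other and all DMH arrays were near the level of the VMH arrays, at 1.47, -0.23 and 0.77. Agrp, the antagonist of melanocortin receptors that opposes Pomc products, read 4.28 and 3.42 on the Arc arrays and 0.08, -0.09 and -0.27 on the DMH arrays, a difference of -3.94 (SE 0.29, adjusted p = 0.0041) or 15.4-fold. Kiss1, the gene of kisspeptin, which drives gonadotropin release, read 2.78 and 3.42 on the Arc arrays and -0.58, -0.65 and -0.27 on the DMH arrays, 12.1-fold lower in DMH with a difference of -3.59 (SE 0.34, adjusted p = 0.00942); a further Kiss1 probe gave -1.12. Cartpt, the gene of the cocaine- and amphetamine-regulated transcript, read 3.92 and 3.54 on the Arc arrays and 0.49, 0.88 and 0.33 on the DMH arrays, a difference of -3.16 (SE 0.40, adjusted p = 0.0295). Ghrh read 2.34 and 2.66 on the Arc arrays and -0.09, -0.07 and -0.32 on the DMH arrays, 6.32-fold lower with a difference of -2.66 (SE 0.25, adjusted p = 0.00942). For each of these 5 genes both Arc arrays lay above all DMH arrays, and all 5 stayed well above background in DMH.

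Npy, made by the same arcuate neurons as Agrp, had a difference nearly as large as Pomc's and was not called: it read 5.19 and 4.45 on the Arc arrays and -0.91, -0.43 and -0.24 on the DMH arrays, a difference of -5.35 (SE 0.93, adjusted p = 0.0648). Its DMH and Arc arrays did not overlap, and the VMH arrays that share the estimate of the spread ran from -3.29 to 0.51. Tac2, the neurokinin B gene, had a difference of -3.66 (adjusted p = 0.057), Oxt, the oxytocin gene, -4.27 (adjusted p = 0.0934), and Sst, the somatostatin gene, -1.22 (adjusted p = 0.104), none of them called. Gal read 3.68 and 3.54 on the Arc arrays and 4.06, 4.52 and 4.32 on the DMH arrays, a difference of 0.69 with a 95% interval of 0.16 to 1.23 (adjusted p = 0.202). Pdyn, the dynorphin precursor, differed by 1.09 (adjusted p = 0.0908). The other precursors tested lay between -1.13 and 2.91 without a call. Cck, Grp, Pomc, Agrp and Ghrh were called with every array left out in turn, Kiss1 in all but 1 (adjusted p = 0.0508 without DMH array 1), and Cartpt in 2 of 8, its adjusted p reaching 0.0976. Qrfp, chosen after its values were seen, was called in 1 of 8 (adjusted p up to 0.111).

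**Figure D2:**
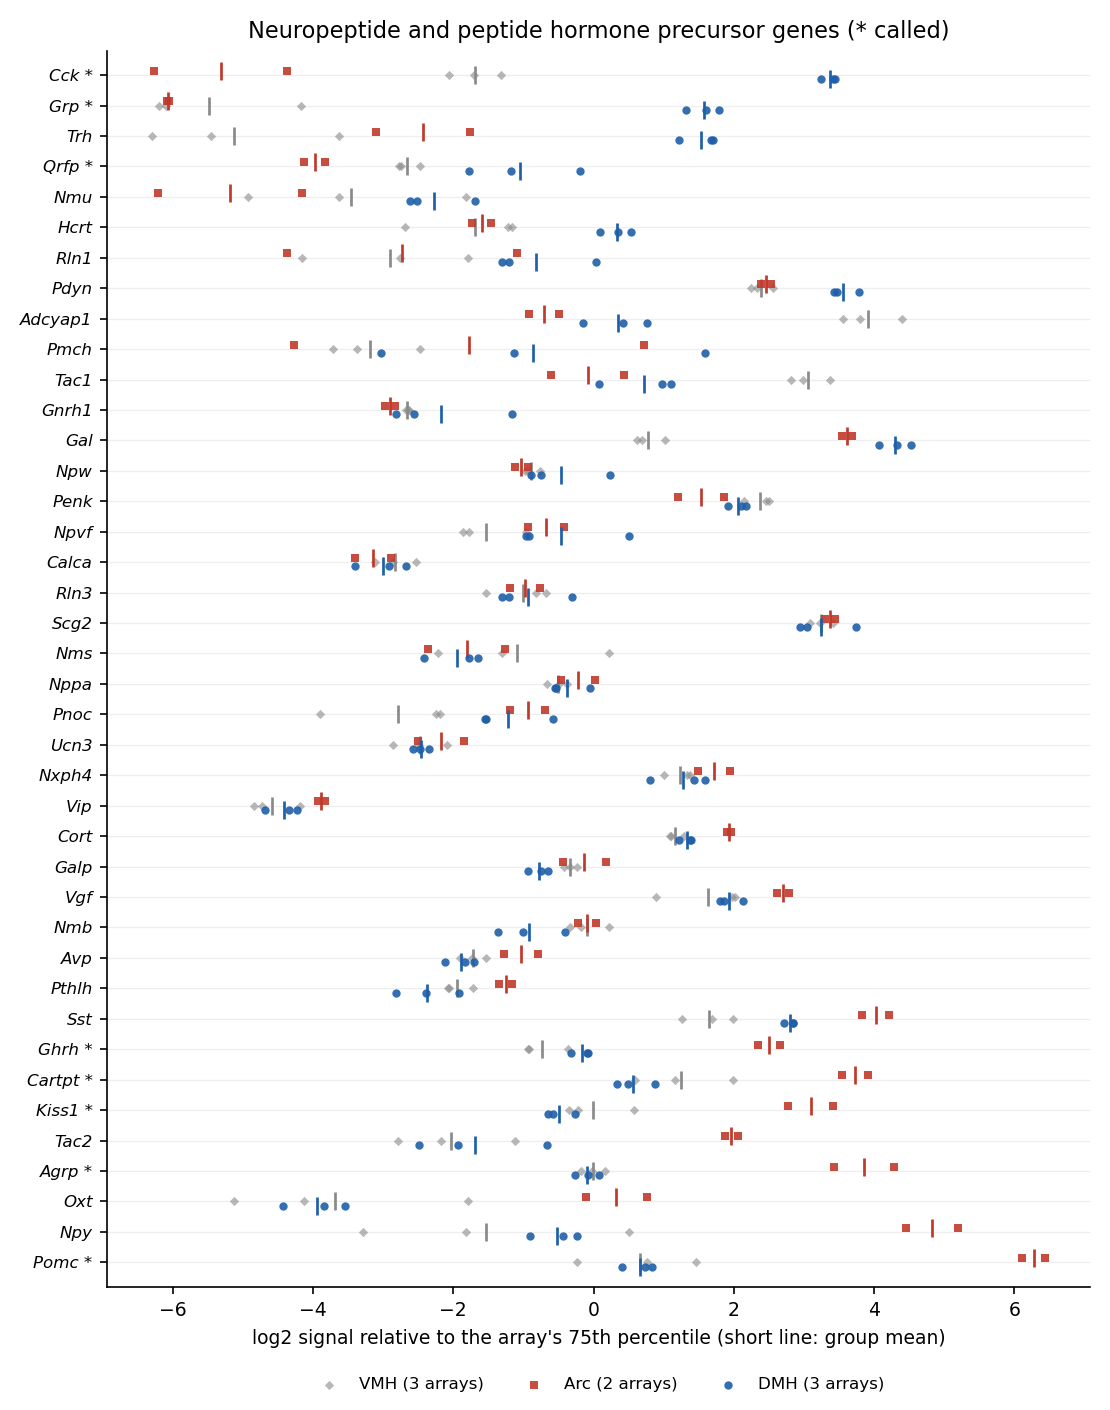
Level of 40 neuropeptide and peptide hormone precursor genes on each array, in log2 relative to the array's 75th percentile, ordered by the difference between DMH (blue circles) and Arc (red squares), with VMH (grey diamonds) beside them; short lines are group means and an asterisk marks a call. Cck and Grp stand at the top with all Arc arrays below -4, and Pomc at the bottom with both Arc arrays above 6.

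Among transcription factors, Nr2f1 and Nr2f2 of the COUP family were higher in DMH. Nr2f2 (COUP-TFII), an orphan nuclear receptor that patterns the developing forebrain, read -6.11 and -6.11 on the Arc arrays and 0.95, 0.47 and 0.26 on the DMH arrays, at least 23.8-fold higher in DMH, with a difference of 6.67 (SE 0.26, adjusted p = 0.000235). Nr2f1 (COUP-TFI), its close relative, read -1.18 and -1.70 on the Arc arrays and 1.79, 1.91 and 1.85 on the DMH arrays, 9.81-fold higher, with a difference of 3.29 (SE 0.22, adjusted p = 0.00276); a further Nr2f1 probe gave 4.87. The VMH arrays read 1.11, 0.71 and 1.10 for Nr2f2 and 1.22, 1.18 and 1.04 for Nr2f1. Rxrg, a retinoid X receptor, ran the other way at 3.46 and 3.10 on the Arc arrays and 0.96, 1.06 and 1.10 on the DMH arrays, 4.72-fold lower in DMH, with a difference of -2.24 (SE 0.23, adjusted p = 0.0117). These 3 were the called genes of the 36 listed nuclear receptors tested, whose median was 0.02. Of all genes, 0.225% were called higher and 0.188% lower. Outside the list, the nuclear receptor Hnf4g, chosen after its value was seen, was called higher, with a difference of 3.21 (SE 0.40, adjusted p = 0.0293). It was not well above background on either Arc array, was at least 2.15-fold higher in DMH, and lost its call when single arrays were left out. Nr2e1 and Nr5a2 had differences of 4.45 (adjusted p = 0.0526) and -4.76 (adjusted p = 0.0795) and were not called. The receptors for oestrogen (Esr1, -0.55 (adjusted p = 0.354)) and glucocorticoid (Nr3c1, 0.42 (adjusted p = 0.506)) were not called either.

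Other regulators were higher in DMH. Ebf3, a helix-loop-helix factor of neuronal differentiation, read -6.22 and -6.20 on the Arc arrays and -1.31, -0.93 and -0.73 on the DMH arrays, at least 8.12-fold higher, with a difference of 5.22 (SE 0.23, adjusted p = 0.000238); it was not well above background on any Arc or VMH array. Prdm13, a zinc finger factor linked to DMH neurons in sleep and feeding, read -6.14 and -3.37 on the Arc arrays and 1.29, 0.51 and 0.95 on the DMH arrays, at least 24.0-fold higher, with a difference of 5.67 (SE 0.84, adjusted p = 0.0421); 1 of the 2 Arc arrays was well above background for it, as for Egr2. Skor1, a transcriptional corepressor, read -4.15 and -4.78 on the Arc arrays and 1.39, 0.29 and 1.35 on the DMH arrays, at least 32.4-fold higher, with a difference of 5.47 (SE 0.65, adjusted p = 0.0244), and a further probe gave 5.09. Egr2, an activity-inducible zinc finger factor, read -6.14 and -3.53 on the Arc arrays and 1.42, 0.65 and 0.13 on the DMH arrays, with a difference of 5.57 (SE 0.70, adjusted p = 0.0293), and was the 1 called gene of 24 immediate early genes (median 0.05). Lmo4, a LIM-domain cofactor, was higher by 1.80 (SE 0.24, adjusted p = 0.0348). Nr2f2, Nr2f1 and Ebf3 kept their calls with every array left out; Prdm13, Egr2, Skor1 and Lmo4 did not, reaching adjusted p of 0.127, 0.0946, 0.0905 and 0.0946, and Rxrg lost its call without DMH array 1 (0.0508) or 2 (0.0562).

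A T-box factor and homeobox genes were among the regulators lower in DMH. Tbx3, which maintains the identity of arcuate Pomc neurons, read 2.95 and 2.69 on the Arc arrays and -1.86, -2.45 and -1.002 on the DMH arrays, 24.2-fold lower in DMH, with a difference of -4.59 (SE 0.39, adjusted p = 0.00593). Of 66 homeobox and LIM-only genes tested, 4 were lower in DMH and 1, Lmo4, was higher (median -0.11), against 0.188% and 0.225% of all genes. Isl1, needed for Pomc expression in Arc, differed by -2.53 (SE 0.38, adjusted p = 0.0459), and Six6, a factor of the ventral hypothalamus and pituitary axis, by -1.40 (SE 0.21, adjusted p = 0.0476). Lhx2 read -0.44 and -1.49 on the Arc arrays and -6.88, -6.48 and -3.31 on the DMH arrays; it was well above background on 1 of the 3 DMH arrays, and its difference of -4.59 (SE 1.00, adjusted p = 0.107) was not called. Tbx3 alone of these kept its call with every array left out; the adjusted p of Isl1 and Six6 reached 0.125 and 0.129.

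Known markers of the nuclei were also described as lists. The lists were chosen with earlier results of these data known. Members not well above background on every array of 1 nucleus passed the filter only through the other, as Cck did through DMH. Counts, medians and sums are thus fixed in part by the choice and the filter, and are no independent check of the labels. Of all genes, 0.225% were called higher and 0.188% lower. Of 23 Arc neuron markers tested, 0 were higher in DMH and 10 lower, with a median of -1.79; their summed signal relative to the 75th percentile was 236 and 188 on the Arc arrays and 30.4 to 36.0 on the DMH arrays. Besides the genes above, Mc3r, Crabp1 and the transcription factors Isl1 and Six6 made up the 10. Of 16 DMH neuron markers tested, 7 were higher and 0 lower, with a median of 2.92; the summed signal was 22.4 and 21.2 on the Arc arrays and 59.4 to 63.2 on the DMH arrays. The median of the DMH markers fell to 1.38 with normexp background correction and, over the fewer members with signal on all 5 arrays, to 0.69. Across all alternatives, 3 to 15 Arc markers and 1 to 9 DMH markers were called. Ppp1r17, a phosphatase inhibitor that marks DMH neurons, read -2.18 and -2.07 on the Arc arrays and 2.71, 1.52 and 1.59 on the DMH arrays, 16.7-fold higher, with a difference of 4.07 (SE 0.38, adjusted p = 0.00939). Lepr, the leptin receptor, was the lowest member at -0.51 and -0.63 on the Arc arrays and -4.33, -5.32 and -2.28 on the DMH arrays, with a difference of -3.41 (adjusted p = 0.121). Of 17 VMH neuron markers tested, 2 were higher in DMH than in Arc, Nr2f2 and Slc17a6, and the median was 0.93. Nr5a1, the defining factor of VMH neurons, differed by -0.44, with a 95% interval of -0.92 to 0.04 (adjusted p = 0.331).

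Of 8 genes of glutamatergic neurons tested, 1, Slc17a6, was higher in DMH. Slc17a6, the vesicular glutamate transporter of hypothalamic neurons, read -2.15 and -2.23 on the Arc arrays and 0.87, 0.14 and -0.12 on the DMH arrays, 5.62-fold higher in DMH, with a difference of 2.49 (SE 0.33, adjusted p = 0.0348); leaving out single arrays took its adjusted p to as much as 0.0973. Gad1 and Gad2, the enzymes that make GABA, read 1.31 and 1.11 on the Arc arrays and 2.33, 0.57 and 0.02 on the DMH arrays for Gad1, and 1.89 and 1.47 on the Arc arrays and 2.36, 1.43 and 1.73 on the DMH arrays for Gad2. Their differences were -0.24 (95% interval -2.09 to 1.61) and 0.15 (-0.62 to 0.93), neither called, and the sign of both changed under some ways of processing. Slc32a1, the vesicular GABA transporter, differed by -0.73 (adjusted p = 0.463). Th, the rate-limiting enzyme of dopamine synthesis, read 4.34 and 3.95 on the Arc arrays and 3.42, 3.70 and 3.99 on the DMH arrays, a difference of -0.44 (adjusted p = 0.483); Slc18a2 and Slc6a3, the vesicular monoamine and dopamine transporters, differed by -1.85 (adjusted p = 0.124) and -1.79 (adjusted p = 0.187). Of 17 genes of dopamine and other monoamines, none was called by limma (median -0.10). An unadjusted p below 0.05 was found for 4 of them, against 4585 of all 27130 genes. Slc18a3, the vesicular acetylcholine transporter, chosen after its value was seen, was lower in DMH, with a difference of -2.42 (SE 0.32, adjusted p = 0.0348), and kept its call in 1 of 8 fits with an array left out (adjusted p up to 0.0946).

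Of 38 neuropeptide receptors tested, 1 was called higher in DMH and 2 lower, against 0.225% and 0.188% of all genes. Their median was -0.71, and 18 had an unadjusted p below 0.05, against 4585 of all 27130 genes. All DMH arrays lay below both Arc arrays for 17 of the 38 and above them for 5, against 20.2% and 13.5% of all genes. Trhr, the receptor for Trh, read -2.17 and -2.60 on the Arc arrays and 1.16, 0.59 and 0.76 on the DMH arrays, 9.33-fold higher in DMH, with a difference of 3.22 (SE 0.33, adjusted p = 0.011). Crhr2, a receptor for corticotropin-releasing factor and urocortins, read -0.02 and -0.05 on the Arc arrays and -2.22, -3.53 and -3.33 on the DMH arrays, a difference of -2.99 (SE 0.46, adjusted p = 0.0494). Mc3r, a melanocortin receptor, read 0.53 and -0.22 on the Arc arrays and -1.66, -1.58 and -1.57 on the DMH arrays, a difference of -1.76 (SE 0.27, adjusted p = 0.046), and its VMH arrays at 0.81, 0.40 and 0.67 were near those of Arc. Other receptors of peptides named above were not called: Grpr differed by -0.39 (adjusted p = 0.605), Cckbr by -0.19 (adjusted p = 0.906), Npy1r by -0.79 (adjusted p = 0.157) and Kiss1r by -0.46 (adjusted p = 0.422). Crhr2 and Mc3r each lost the call when single arrays were left out (adjusted p up to 0.129 and 0.124), and Trhr without Arc array 2 (0.0521) or DMH array 1 (0.0508).

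Serotonin receptors moved in both directions. Htr2c, which is known for its part in satiety, read -0.84 and -1.33 on the Arc arrays and 1.75, 1.80 and 1.31 on the DMH arrays, 6.53-fold higher in DMH, with a difference of 2.71 (SE 0.25, adjusted p = 0.00811), while further probes gave 3.13 and 0.78; the call was lost with the mean of a gene's probes. Htr1b, an inhibitory serotonin receptor, read -3.16 and -2.94 on the Arc arrays and -6.79, -6.42 and -5.72 on the DMH arrays, at least 3.56-fold lower, with a difference of -3.26 (SE 0.47, adjusted p = 0.0414); the call was lost with a floor at the lowest detected signal. They were the called genes of 32 receptors for monoamines, acetylcholine, histamine, cannabinoids and adenosine (median -0.12). Htr1b was highest in VMH, at -2.17, -0.93 and -0.77. Among receptors without a settled ligand or grouped with them, Gpr158 was lower, with a difference of -1.43 (SE 0.22, adjusted p = 0.0495); a further probe gave -0.24, and the call was lost with the mean of a gene's probes. Gpr39, a zinc-sensing receptor, read -6.28 and -6.25 on the Arc arrays and -1.81, -2.15 and -2.23 on the DMH arrays, at least 3.86-fold higher in DMH, with a difference of 4.20 (SE 0.28, adjusted p = 0.00276). Htr2c and Gpr39 kept their calls with every array left out, whereas Htr1b and Gpr158 reached 0.122 and 0.144.

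Genes of growth factor and endocrine signalling were mostly lower in DMH where they were called. Acvr1c (ALK7), a receptor for activins and related ligands, read -0.78 and -1.66 on the Arc arrays and -6.78, -6.42 and -6.37 on the DMH arrays, at least 12.6-fold lower, with a difference of -5.30 (SE 0.58, adjusted p = 0.0159); a further probe gave -4.06. It was the 1 called gene of 67 growth factors and receptors (median -0.09), against 0.413% of all genes called in either direction. Its VMH arrays read -1.09, -3.22 and -1.83. Socs2, an inhibitor of growth hormone signalling, was lower, with a difference of -1.93 (SE 0.24, adjusted p = 0.0293) and was the 1 called gene of 33 in leptin, insulin, growth hormone and cytokine sensing. Of 24 genes that handle retinoids and steroids, 3 were lower and 0 higher (median -0.34), against 0.188% and 0.225% of all genes. Crabp1, a cytosolic retinoic acid-binding protein, read 1.69 and 2.75 on the Arc arrays and -1.59, -1.87 and -1.23 on the DMH arrays, 13.8-fold lower, with a difference of -3.79 (SE 0.34, adjusted p = 0.00811). Rbp4, a carrier of retinol, read -1.27 and -1.01 on the Arc arrays and -3.60, -4.02 and -4.47 on the DMH arrays, with a difference of -2.89 (SE 0.40, adjusted p = 0.0362), and Rxrg, given above, was the other. Crabp1 kept its call with every array left out; the adjusted p of Rbp4, Acvr1c and Socs2 reached 0.115, 0.0742 and 0.0895.

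Among synaptic and adhesion genes, 8 called genes are described. Fam19a4 and Fam19a2, members of the TAFA family of secreted proteins, were higher in DMH by 4.30 (SE 0.58, adjusted p = 0.0362) and 2.78 (SE 0.38, adjusted p = 0.0362), the 2 called genes of 21 secreted synaptic organisers (median 0.50). Syt1, the calcium sensor of transmitter release, read 1.56 and 1.53 on the Arc arrays and 2.98, 3.00 and 3.01 on the DMH arrays, a difference of 1.45 (SE 0.19, adjusted p = 0.0304) or 2.74-fold. Its DMH arrays lay within 0.03 of each other, and it was the 1 called gene of 56 in vesicle release (median 0.15). Grm5, a metabotropic glutamate receptor, read 1.27 and 1.53 on the Arc arrays and 3.29, 2.96 and 2.96 on the DMH arrays, a difference of 1.67 (SE 0.21, adjusted p = 0.0295), the 1 called gene of 30 glutamate receptor genes (median -0.26). Slit2, a repellent axon guidance cue, was higher by 1.42 (SE 0.21, adjusted p = 0.0414), whereas Pcdh7, a protocadherin, was lower, with a difference of -2.01 (SE 0.29, adjusted p = 0.0414). Cdh7, a cadherin, and Ppfia2, a presynaptic scaffold of the liprin family, were not well above background on either Arc array, so they were at least 2.43-fold and at least 2.82-fold higher in DMH (fitted adjusted p = 0.0414 and 0.0414). Both lost the call with a floor at the lowest detected signal. None of these 8 genes kept its call with every array left out; the highest adjusted p ranged from 0.0874 for Grm5 to 0.119 for Slit2.

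Among ion channels and signalling enzymes, single genes were called. Kcnip4, which modulates A-type potassium channels, read -1.74 and -1.95 on the Arc arrays and 0.56, 0.49 and 0.18 on the DMH arrays, 4.78-fold higher in DMH, with a difference of 2.26 (SE 0.22, adjusted p = 0.0103). Kcna5, a voltage-gated potassium channel, read 1.67 and 2.62 on the Arc arrays and 0.01, -0.60 and -0.94 on the DMH arrays, with a difference of -2.66 (SE 0.39, adjusted p = 0.0414). Kcnip4 and Kcna5 were the called genes of 52 potassium channel genes (median -0.07), against 0.413% of all genes. Cacng5, an auxiliary subunit of glutamate receptors listed with calcium channels, was lower, with a difference of -2.23 (SE 0.29, adjusted p = 0.0337). Ptk2b, a calcium-activated tyrosine kinase, read 0.70 and 0.87 on the Arc arrays and 2.40, 2.74 and 2.60 on the DMH arrays, a difference of 1.80 (SE 0.21, adjusted p = 0.0211), and a further probe gave 3.75. Dagla, which makes the endocannabinoid 2-arachidonoylglycerol, was higher by 1.48 (SE 0.20, adjusted p = 0.0362). With single arrays left out, Kcnip4 lost its call only without DMH array 2 (adjusted p = 0.0512), and Kcna5, Cacng5, Ptk2b and Dagla reached 0.118, 0.0973, 0.0728 and 0.0993. Kcnip4 also lost its call when limma was fitted to only the 5 Arc and DMH arrays (adjusted p = 0.0537).

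Genes outside these groups were among the largest differences. Trim67, a ubiquitin ligase of the tripartite motif family, read -0.94 and -1.30 on the Arc arrays and -6.76, -6.37 and -6.19 on the DMH arrays, at least 13.5-fold lower in DMH, with a difference of -5.32 (SE 0.45, adjusted p = 0.00593). Phyhipl read -6.27 and -5.72 on the Arc arrays and -1.90, -1.86 and -1.79 on the DMH arrays, at least 4.47-fold higher, with a difference of 4.15 (SE 0.31, adjusted p = 0.00417). Both kept their calls with every array left out. Fam196b, for which 1 of the 2 Arc arrays passed background, was higher by 3.84 (SE 0.53, adjusted p = 0.0362). Rpf1 (a ribosome production factor) and Rbm24 (an RNA-binding protein) were not well above background on either Arc array and were at least 4.55-fold and at least 2.94-fold higher (fitted adjusted p = 0.0304 and 0.0362). Both lost the call with a floor at the lowest detected signal, and a further Rpf1 probe gave 0.82. Klk1b5 and Prrg1 were not well above background on any DMH array and were at least 5.20-fold and at least 3.46-fold lower (fitted adjusted p = 0.0103 and 0.011). Both lost the call with normexp background correction, and across alternatives their differences shrank to as little as -1.44 and -1.02. Pld5 was lower, with a difference of -2.99 (SE 0.41, adjusted p = 0.0362), while further probes gave -0.73 and -0.78 and the call was lost with the mean of a gene's probes. Klk1b5 belongs to a family of near-identical kallikrein genes, so which of them its probe reads is uncertain. The adjusted p of Fam196b, Rpf1, Rbm24, Klk1b5, Prrg1 and Pld5 reached 0.0969, 0.102, 0.11, 0.0508, 0.0541 and 0.113 when single arrays were left out.

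**Figure D3:**
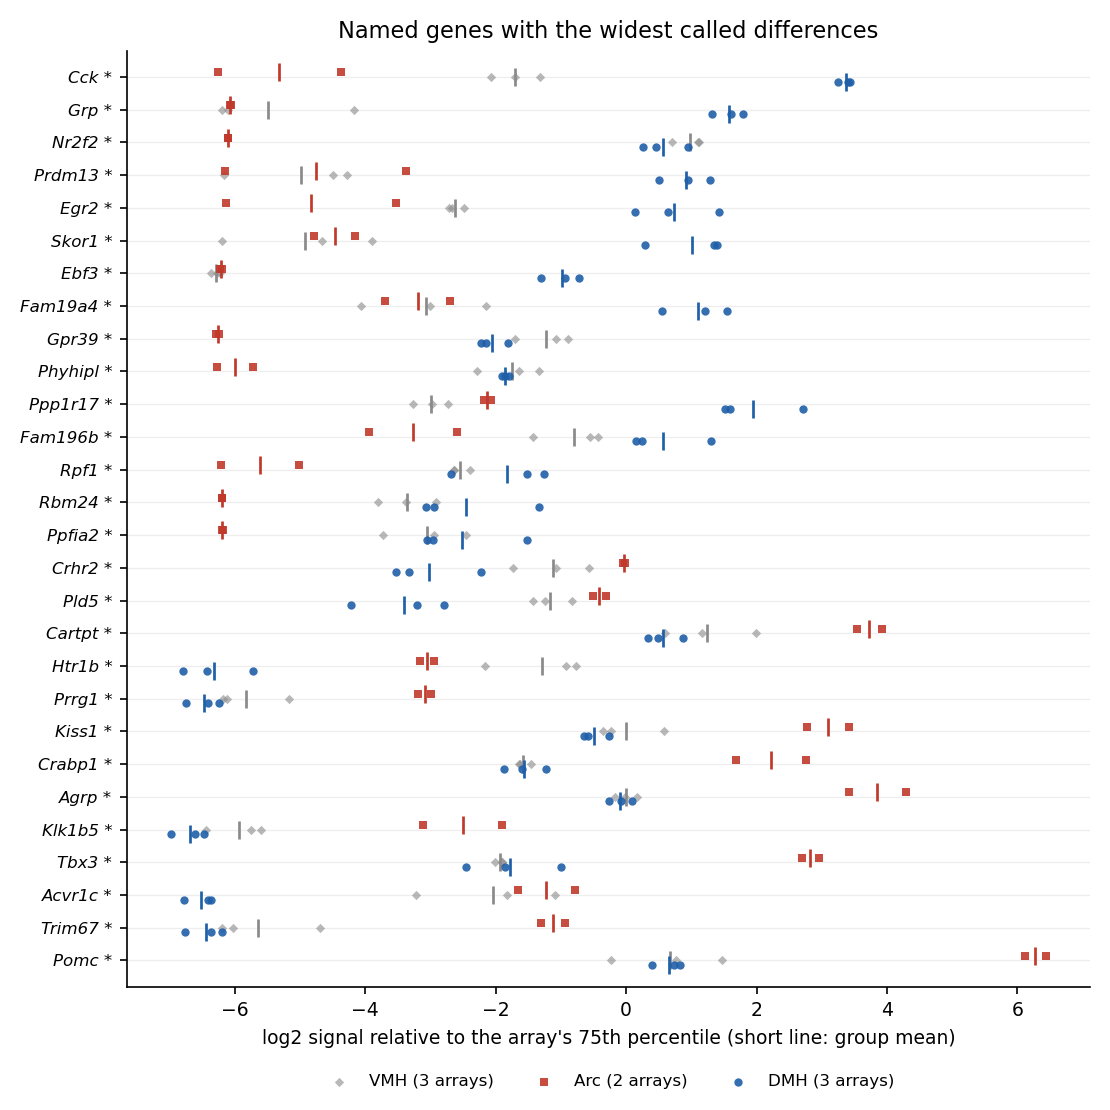
Level of 28 named genes among those with the largest called differences, 15 higher and 13 lower in DMH, on each array of DMH (blue circles), Arc (red squares) and VMH (grey diamonds), in log2 relative to the array's 75th percentile; short lines are group means. The DMH and Arc points do not overlap for any of them, as the choice required, and the VMH points lie with DMH for some genes (Nr2f2, Gpr39, Tbx3, Pomc) and with Arc for others (Grp, Ebf3, Skor1, Ppp1r17).

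Some called differences were small. Beside those above, Tmem256 was higher by 2.00 (SE 0.25, adjusted p = 0.0291), and Fkbp6, Olfr319 and Olfr361 were lower, with differences of -1.31 (SE 0.18, adjusted p = 0.0362), -1.50 (SE 0.22, adjusted p = 0.0428) and -1.66 (SE 0.22, adjusted p = 0.0348). Fkbp6 read -2.76 and -2.75 on the Arc arrays and -4.06, -4.08 and -4.05 on the DMH arrays, with spreads of 0.01 between the Arc arrays and 0.04 among the DMH arrays. The 2 Olfr names are those of olfactory receptor genes. Among called genes outside the naming rule, chosen after their values were seen, Tox3 was higher by 2.26 (SE 0.22, adjusted p = 0.0103) and a further probe of it gave 5.39. Islr2 was higher by 2.97 (SE 0.24, adjusted p = 0.00586), Kctd12 by 2.83 (SE 0.38, adjusted p = 0.0362) and Flrt3, an adhesion protein, by 1.57 (SE 0.22, adjusted p = 0.0362). Col2a1, a fibrillar collagen, was lower, with a difference of -2.92 (SE 0.26, adjusted p = 0.00769). The unclassified transcript AW549542 read 2.49 and 1.63 on the Arc arrays and -5.49, -3.36 and -2.56 on the DMH arrays, a difference of -5.86 (SE 0.81, adjusted p = 0.0362), with 2 of the 3 DMH arrays well above background. Tox3, Islr2 and Col2a1 kept their calls with every array left out, and Kctd12, Flrt3 and AW549542 reached adjusted p of 0.108, 0.101 and 0.102. Without single arrays, the adjusted p of Tmem256, Fkbp6, Olfr319 and Olfr361 reached 0.0895, 0.108, 0.13 and 0.095.

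Calls were spread unevenly over the kinds of transcript on the array. Of 15864 protein-coding genes matched to RefSeq, 52 were higher (0.328%) and 38 lower (0.24%). Of 4205 probes for intergenic transcripts, 0 were higher and 4 lower (0.0951%); at 3 of these 4, further probes of the same transcript gave differences above 0 that did not pass an unadjusted 0.05. Further probes gave 2.97 for Fam19a4, 1.37 for Kcnip4, 0.90 for Lmo4, 2.41 and 1.02 for Grm5, and 2.46 and 1.91 for Flrt3. They gave -1.52 for Kcna5, -1.32 for Rxrg, -1.89 and -1.63 for Socs2, and -1.22 and -0.73 for Pcdh7. Grm5 and Pcdh7 lost the call with the mean of a gene's probes. Of 14 genes called higher that had further probes, 1, Pdzd2, had a probe on the other side of 0, at -0.34. Of 11 called lower, the 3 intergenic transcripts were the only ones with such a probe.

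The VMH arrays place some of these genes. In DMH against VMH, 1.13% of genes passed the threshold, and in VMH against Arc, 0.903%; both share arrays with the main comparison, so values are given side by side only. Cck was 8.68 in DMH over Arc, 5.06 in DMH over VMH (adjusted p = 0.004) and 3.62 in VMH over Arc (adjusted p = 0.0237). Grp was 7.64, 7.06 (adjusted p = 0.00239) and 0.58 (adjusted p = 0.7). Nr2f2 was 6.67, -0.41 (adjusted p = 0.496) and 7.08 (adjusted p = 0.000147). Cck was called in all 3 comparisons, Grp in those that hold DMH, and Nr2f2 in those that hold Arc. Pomc was -5.62 in DMH over Arc and -0.01 in DMH over VMH (adjusted p = 0.993). Rxrg was -2.24 against Arc and -2.51 against VMH (adjusted p = 0.00342), and Htr1b -3.26 and -5.03 (adjusted p = 0.00342), both lower in DMH than in either other nucleus. Gad2 was 0.15 against Arc and 3.84 against VMH (adjusted p = 0.00318), and Gal 0.69 and 3.53 (adjusted p = 0.00148). Trh, not called against Arc, was 6.66 against VMH (adjusted p = 0.00591).

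Other lists held no gene called by limma. Over all 27130 genes tested, 4585 had an unadjusted p below 0.05, and the counts of the lists stand beside that share. Of 22 circadian clock genes, 5 had an unadjusted p below 0.05 and the median was 0.30; Rora, Npas2 and Rorb had differences of 2.87 (adjusted p = 0.0795), 3.23 (adjusted p = 0.118) and 1.56 (adjusted p = 0.0921). Of 24 genes of GABA and glycine receptors and the inhibitory synapse, 6 had such a p (median 0.24), with Gabrg3 at 1.56 (adjusted p = 0.0524). Of 30 calcium-binding proteins, 11 had such a p; Calb2 came nearest at -1.62 (adjusted p = 0.0502) and Pcp4l1 differed by 3.27 (adjusted p = 0.106). Of 38 imprinted genes, 4 had such a p; Asb4 and Copg2 differed by -0.76 (adjusted p = 0.163) and -0.69 (adjusted p = 0.212). The 92 respiratory chain and ATP synthase genes had a median of 0.17 with 71 above 0 and 11 with such a p. The 82 cytosolic ribosomal protein genes had 2 with such a p and a median of -0.18, which became -0.02 after quantile normalization. Of 13 heat shock and stress genes 1 had such a p, with Ddit3 at 1.52 (adjusted p = 0.182). Of 11 markers of lateral, paraventricular, suprachiasmatic and mammillary neurons, 4 had such a p (median -0.24); Hcrt, the orexin precursor of lateral hypothalamic neurons, differed by 1.92 (adjusted p = 0.118).

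Markers of cells other than neurons were present on all arrays, though not every marker on each. None was called by limma. The counts at an unadjusted p below 0.05 stand beside 4585 of all 27130 genes. Of 14 astrocyte markers tested, 5 had an unadjusted p below 0.05, the median was 0.42 and 11 lay above 0; Gjb6, an astrocytic connexin, differed by 1.43 (adjusted p = 0.0514), and the summed signal was 80.3 and 81.7 on the Arc arrays and 69.5 to 90.0 on the DMH arrays. Of 15 microglial markers 4 had such a p, with sums of 283 and 249.9 in Arc and 149 to 190.5 in DMH; without Itgam, at 7.72 and 7.51 on the Arc arrays and 6.51, 6.95 and 6.85 on the DMH arrays, the sums were 73.2 and 67.7 in Arc and 55.0 to 66.8 in DMH. Of 15 oligodendrocyte markers 2 had such a p (sums 24.8 and 16.2 in Arc, 19.4 to 27.2 in DMH), and of 14 vascular markers 5 (11.2 and 10.99 in Arc, 8.42 to 10.2 in DMH). Of 15 tanycyte and ependymal markers 7 had such a p, with sums of 9.28 and 11.98 in Arc and 6.48 to 7.09 in DMH; without Six3 the sums were 4.54 and 4.93 in Arc and 4.45 to 5.19 in DMH. Of the 15, 7 lay above 0: Sox2 differed by 1.43 (adjusted p = 0.216), Ccdc153 by 0.90 (adjusted p = 0.203) and Gpr50 by 0.73 (adjusted p = 0.172). Rax, a defining tanycyte factor, differed by -0.51 (adjusted p = 0.412), and Vim and Lhx2, each well above background on 1 of 3 DMH arrays, by -4.33 (adjusted p = 0.143) and -4.59 (adjusted p = 0.107). Nes, not well above background on any DMH array, differed by -2.89 (adjusted p = 0.145). Mog was not well above background on either Arc array. P2ry12 was well above it on 1 of 3 DMH arrays, and Frzb and the vascular marker Itm2a on 1 of 2 Arc arrays each. The astrocyte genes Gja1, Sox9 and Gli3 did not pass the filter on dim probes. The part of such cells in the differences above was not tested.

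**Figure D4:**
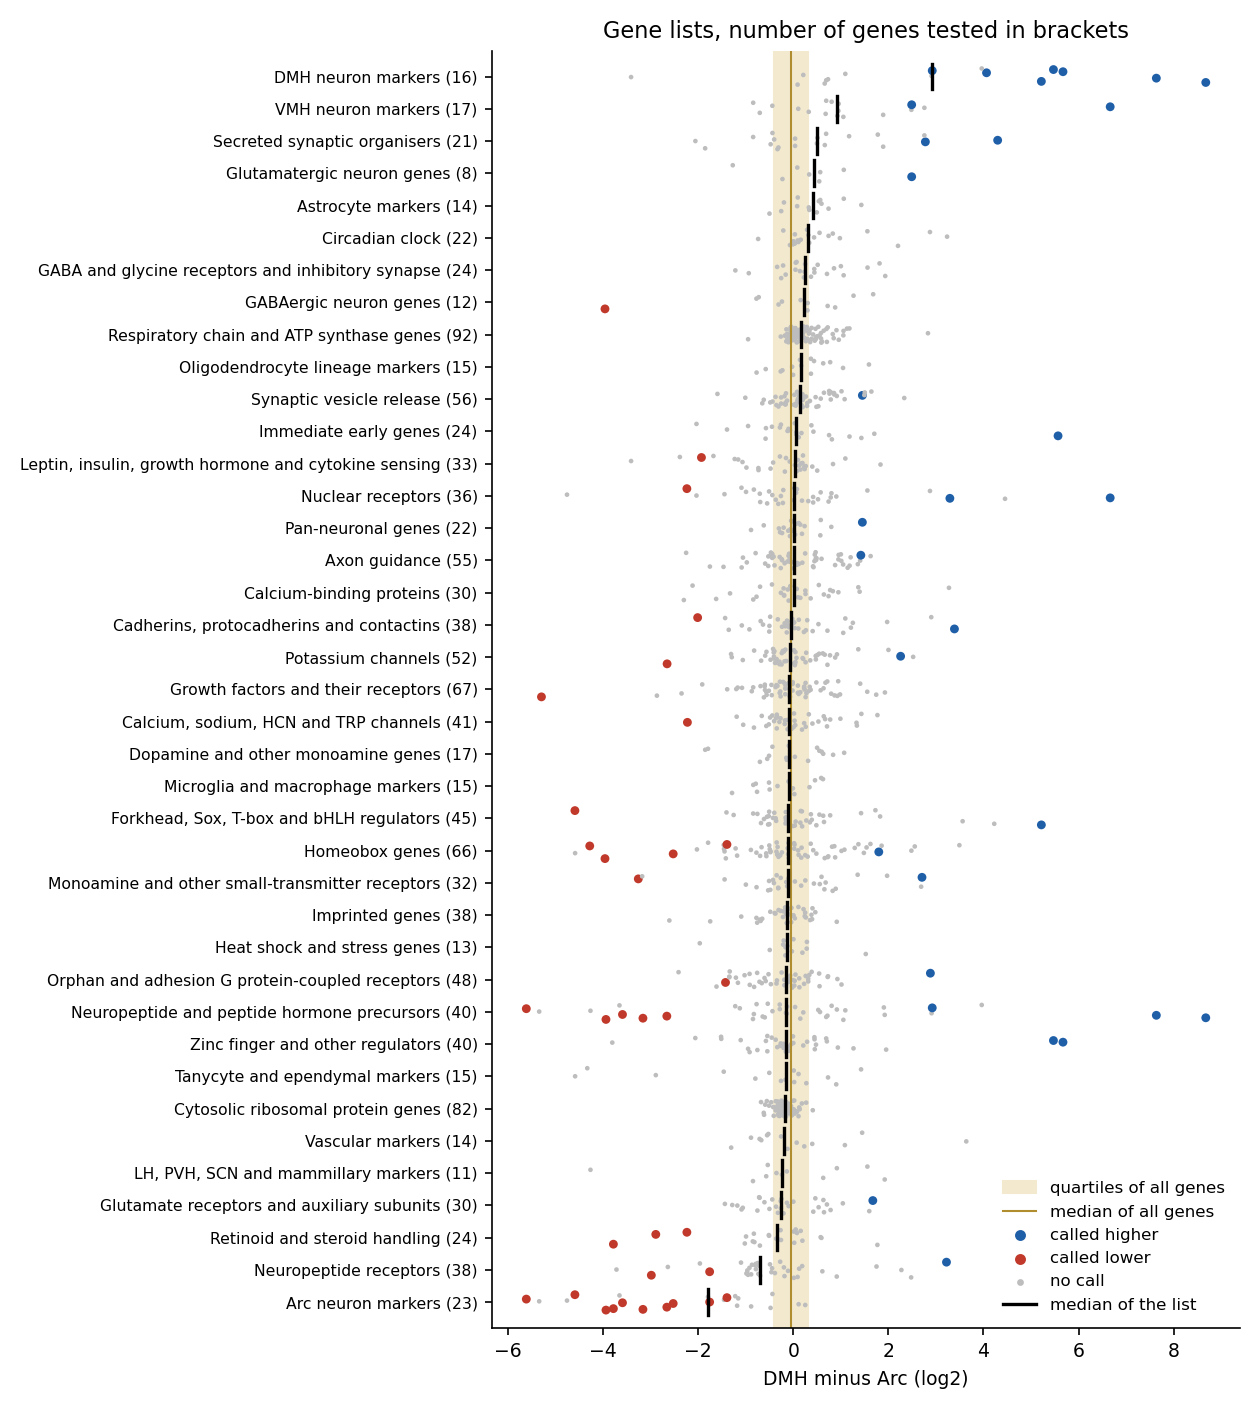
Difference between DMH and Arc (log2) of every tested member of 39 gene lists, with list medians as black bars, called members in blue (higher in DMH) or red (lower), the median of all genes as a line and their quartiles as the edges of a band. The medians of the DMH and Arc marker lists lie at 2.92 and -1.79, while the other lists have medians between -0.71 and 0.93 and hold from 0 to 8 called members.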

How the data were processed

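RNA of laser-captured neurons was hybridised to 1-colour Agilent arrays, all on 1 slide, with 2 arrays of Arc, 3 of DMH and 3 of VMH. The deposited scanner files hold red-channel spot intensities that Feature Extraction (version 11.5.1.1 in the submitters' processing notes) had background-subtracted and detrended within each array, per the file headers; no normalization between arrays was applied in them. The table of processed values of the series was not used, because after the first 13 of its 55681 entries each column runs in constant steps.

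From the intensities, log2 values were taken minus the array's 75th percentile. Control spots and outlier flags were left out, and the 59305 other spots averaged to 55681 probes. Probes entered the fit if every array of Arc, or every array of DMH, showed them well above background. The brightest probe by the mean of both groups stood for a gene name, which decided 8158 names with several probes. RefSeq held 17145 of the 27130 names tested (63.2%). Limma 3.58.1 in R 4.3.3 fitted 1 mean per nucleus over all 8 arrays (lmFit, eBayes), with Benjamini-Hochberg adjustment over all genes tested. The model was also run on simulated data built from the gene means and fitted spread of these arrays. They held independent normal noise and no detection floor, unlike the arrays. The number of arrays limits the precision.

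The members and the 39 gene lists were chosen with earlier results of these data known. Genes were named by a rule: the 15 largest called differences in each direction without overlap of arrays, up to 4 called members of a list or the 2 with the smallest p where none was called, the 6 smallest p in each direction among called differences under 2, and 17 genes known for these nuclei. Genes named outside it (among them Qrfp, Lepr, Tac2, Sst, Pdyn, Hnf4g, Nr2e1, Nr5a2, Nr5a1, Esr1, Nr3c1, Grpr, Cckbr, Npy1r, Kiss1r, Slc18a3, Tox3, Islr2, Kctd12, Flrt3, Col2a1, AW549542, Pdzd2, Npas2, Hcrt, Vim, Nes, Frzb, Rax, Sox2, Ccdc153, Gpr50 and Mog) were chosen after their values were seen. A few results under this rule are left out here. Alternatives changed the background correction, scaling, filter, floor, choice of probe, arrays fitted, variance model, array weights, blocks and each array left out.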

Additional observations from a re-analysis of the deposited data

How the results depend on the processing

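The reported counts, 61 genes higher in DMH and 51 lower, moved with the processing, while every reported call kept its sign in each alternative in which its gene was tested. Both counts stayed within 1.5 times under quantile normalization (83 and 67), cyclic loess (77 and 51) and scaling on the detected probes alone (61 and 57). They were 105 and 124 with normexp background correction, 124 and 82 with the mean of a gene's probes, 120 and 108 with a trended and robust variance, and 77 and 85 with a floor at the lowest detected signal. They were 23 and 16 when dim probes stayed in, 26 and 23 with only the 5 Arc and DMH arrays, 25 and 16 with array weights, 34 and 22 with a block for the row of the slide, and 30 and 36 with a filter for signal on all 5 arrays, which by construction drops genes dim in 1 nucleus. With the replicate block they were 19 and 11. Deviations of same-numbered arrays of Arc and DMH from their group means correlated at 0.080 and 0.101 over genes. Only 2 numbers are shared, and the deviations of 2 Arc arrays from their mean mirror each other. These values therefore cannot decide whether same-numbered arrays are pairs. The labels do not say, and the numbers were not taken as pairs. Leaving out 1 array at a time gave 19 to 90 genes higher and 9 to 34 lower; where Arc was left with 1 array, it is assumed to vary like the other nuclei. Except for that filter, the cause of these moves was not tested. Over 20 alternatives other than that filter, 9 genes higher and 5 lower kept the call in each: A630038E17Rik, Cck, Ebf3, Gpr39, Grp, Islr2, Nr2f1, Nr2f2 and Phyhipl, and Agrp, Col2a1, Pomc, Tbx3 and Trim67. Of 94 named genes, Gad1 and Gad2 changed sign, neither of them called: Gad1 was 0.079 with the replicate block and ran from -0.92 to 0.24 with arrays left out, and Gad2 ran from -0.11 to 0.36, with -0.05 without Arc array 2. Of list medians, 770 moved by less than 1 SD between arrays and 49 by more. The median over all genes was -0.02 with quantile or cyclic loess scaling and -0.12 with no filter. Dim genes are limited most, since a probe below background gives only a bound on its level.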
